A study of Mus musculus with 6 samples.

Results

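The genes described here make, sense or move cholesterol. They are 27 named genes of the mouse: 18 enzymes of cholesterol synthesis, 6 genes that control or serve the sterol-sensing system, and 3 transporters of sterols at the gut surface. They were picked by symbol, and all 27 stood in the deposited tables among 56362 features. RNA had been sequenced from intestine of BALB/c mice in 2 groups, with 3 wild type mice and 3 mice with a knockout of FcεRIα, the IgE-binding chain of the high-affinity IgE receptor of mast cells. Each mouse gave 1 library. The letters DSS stand in the name of every library of either group, and the labels give them no meaning. Neither age and sex of the mice nor the making of the knockout is given in the sources used here, and the series title speaks of epithelial cells where the tissue label names the intestine. The comparison asks how gene expression in the gut differs when this receptor chain is missing.

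Cells build cholesterol from acetyl-CoA through mevalonate, isoprenoid diphosphates, squalene and lanosterol. When sterols in the endoplasmic reticulum run low, the escort protein Scap carries the transcription factor precursors SREBP-1 and SREBP-2 to the Golgi, where they are cut and released to the nucleus, and when sterols are plentiful the Insig proteins hold Scap back. SREBP-2 switches on nearly every gene of the synthetic pathway, so that these genes tend to move as a set. In the intestine the epithelium both makes cholesterol and takes it from the diet, and it returns surplus sterol to the lumen through the paired transporters Abcg5 and Abcg8.

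SREBPs bind the sterol regulatory element, often beside a CCAAT box, the site of NF-Y. RefSeq promoter windows on GRCm38.p6 (250 bases before to 50 after the start of a transcript) were matched for 23 of the 27 genes. The 9-letter core TCACNCCAC, sought on both strands, was present in 1 of these 23, Hmgcs1, and in 1.44% of all 27025 genes of the table. Its 8-letter form CACNCCAC, which every 9-letter match also holds, was present in 3 of 23 (Hmgcs1, Acat2 and Insig1) and in 7.12% of all genes. CCAAT on either strand was in 21 of 23 and in 41.1% of all genes, and the GC box GGGCGG in 19 of 23 and in 38.2%. A gene counted if any of its windows matched, and these 23 genes had 32 windows. By window, CCAAT was in 22 of 32 and in 37.4% of all 32851, and the GC box in 23 of 32 and in 35.7%. These are matches of letters only. The first 3 stretches below hold the 8-letter core, and those of Mvk and Pmvk are shown because these genes differed most between the genotypes by p. Capitals mark the 8-letter core and CCAAT, each either as named or as its reverse complement (ATTGG for CCAAT). All are 5′ to 3′ on the strand of the gene.
Hmgcs1, chr13:119690175-119690262, plus strand: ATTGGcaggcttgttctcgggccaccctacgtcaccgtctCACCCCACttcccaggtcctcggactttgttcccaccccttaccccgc
Acat2, chr17:12960731-12960946, minus strand: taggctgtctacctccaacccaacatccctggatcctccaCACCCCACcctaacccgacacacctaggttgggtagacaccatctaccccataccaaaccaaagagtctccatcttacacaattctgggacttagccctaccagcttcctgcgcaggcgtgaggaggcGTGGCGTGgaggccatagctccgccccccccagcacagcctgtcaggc
Insig1, chr5:28071382-28071411, plus strand: gggcgcggtacgtgtagtgtcGTGGCGTGt
Mvk, chr5:114444056-114444268, plus strand: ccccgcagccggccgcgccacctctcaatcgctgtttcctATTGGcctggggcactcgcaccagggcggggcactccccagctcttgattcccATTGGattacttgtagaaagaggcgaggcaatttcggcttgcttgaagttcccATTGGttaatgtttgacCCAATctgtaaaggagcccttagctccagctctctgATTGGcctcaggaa
Pmvk, chr3:89454365-89454449, plus strand: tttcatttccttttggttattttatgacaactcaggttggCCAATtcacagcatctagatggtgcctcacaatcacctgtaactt
The stretch of Mvk holds 5 CCAAT boxes and that of Pmvk 1, and neither holds the 8-letter core.

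The libraries held 19031765 to 23092302 counts. Levels are given in CPM, counts scaled to a common library total, with totals adjusted by TMM, a method that equalises most genes between libraries. Wild type library 1 stood apart from the other 5, with 10.3% of its counts from mitochondrially encoded genes against 2.54% to 3.64% elsewhere. The targeted gene, Fcer1a, had 0, 10 and 18 counts in wild type against 1, 0 and 0 in knockout libraries 1 to 3, so it could not check the label of wild type library 1. Markers of gut epithelium were high in every library (Epcam at 1220 to 2274 CPM). The colonocyte marker Car1 was at 206 to 741 CPM. The 12 small intestinal markers gave a mixed picture. Their summed level was 87.8 to 184 CPM in wild type against 199 to 233 CPM in knockout. The glucose transporter gene Slc5a1 made up most of it, at 52.0 to 120 CPM in wild type against 151 to 162 CPM in knockout. Of the 8 tested, 5 were higher in knockout. In 2 of these, Slc5a1 and Apob, the groups did not overlap, against 8.73% of all tested genes apart and higher. Apob was at 0.561 to 1.09 CPM in wild type against 4.80 to 12.3 CPM in knockout. The lactase gene Lct and the sucrase gene Sis reached at most 0.0934 CPM. In bulk RNA such as this, fewer cells of a type and less RNA per cell cannot be told apart.

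Most cholesterol genes were somewhat higher in knockout gut, and none passed the test. Of the 26 with enough counts to be tested, 25 had a higher fitted level in knockout and 1 (Dhcr7) a lower one, with a median log2 fold change of 0.28, where 44.2% of all 16732 tested genes were higher and their median was -0.05. Differences were small, from -0.02 to 0.64 on the log2 scale. By edgeR's quasi-likelihood test 0 of 26 passed at an adjusted p under 0.05, as did 0.0% of all tested genes, and the smallest adjusted p of a cholesterol gene was 0.684. At an unadjusted p under 0.05 there were 3, Mvk, Pmvk and Stard4, each higher, against 4.54% of all tested genes that were higher at that level and 2.3% that were lower. That count changed with the library left out, as did the number of all tested genes at that level in either direction. It was 12 without wild type library 1, beside 4344 of 17282 genes. It was 1 and 2 without wild type libraries 2 and 3, beside 629 of 17123 and 856 of 17148 genes. Leaving out knockout libraries 1, 2 and 3 gave 0, 3 and 2, beside 405 of 17254, 535 of 17200 and 986 of 17229. In 4 genes (Mvk, Pmvk, Sqle and Stard4) every knockout library lay above every wild type library, which held for 8.73% of all tested genes, and in 0 the reverse, which held for 4.27%. DESeq2 and limma-voom also called 0 of the 26, and they called 0.824% and 0.012% of all genes tested.

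**Figure D1:**
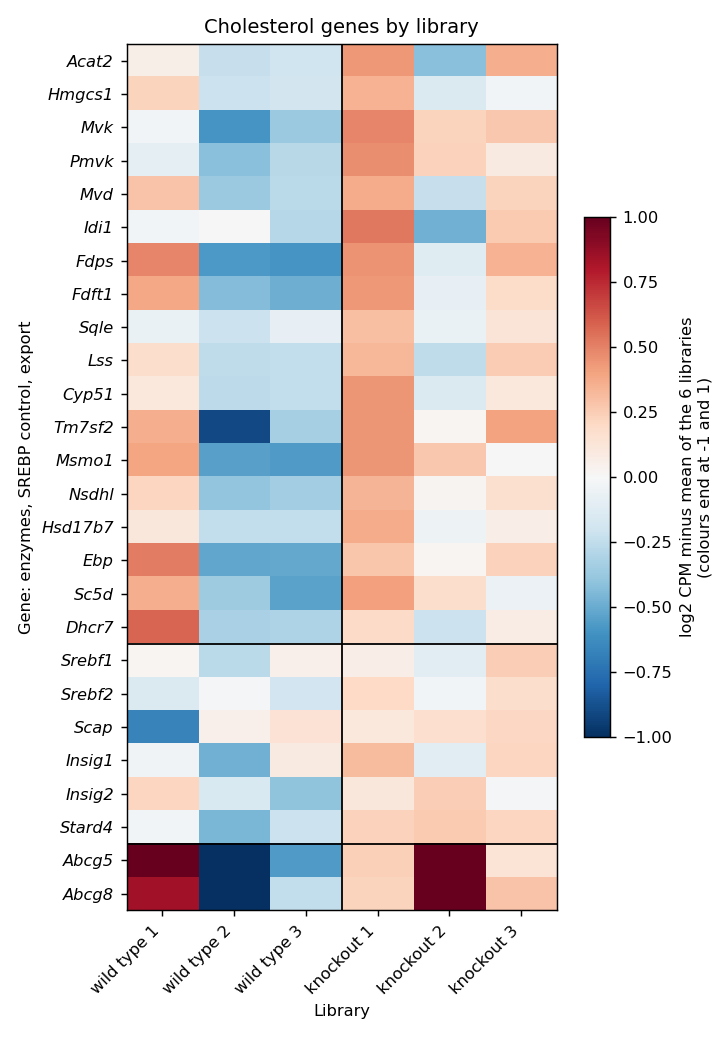
Level of each tested cholesterol gene (rows) in each of the 6 libraries (columns), as log2 CPM minus the mean of the 6 libraries for that gene, with red above and blue below that mean and colours ending at -1 and 1. Most enzyme rows are red in wild type library 1 and knockout library 1 and blue in wild type libraries 2 and 3; Abcg5 and Abcg8 are deepest red in wild type library 1 and knockout library 2.

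The first steps join acetyl groups and end in farnesyl diphosphate, the branch point to sterols, ubiquinone and prenylated proteins. All 7 genes of this arm were higher in knockout gut (median log2 fold change 0.29), against 44.2% of all tested genes. In 2 of them, the consecutive mevalonate kinases, the groups did not overlap, against 8.73% of all tested genes apart and higher. Mvk, which phosphorylates mevalonate (chr5:114444269-114460591, GENCODE vM21 on GRCm38), stood at 40.7, 27.5 and 32.0 CPM in the wild type mice (libraries 1, 2 and 3, an order kept throughout) against 58.1, 48.3 and 49.98 CPM in knockout libraries. Each knockout library thus lay above the highest wild type library. The means were 33.4 ± 6.68 and 52.1 ± 5.27 CPM (SD, n = 3 each), a log2 fold change of 0.64 (SE 0.19), with an adjusted p of 0.684 by edgeR. Pmvk, which adds the next phosphate (chr3:89454541-89469013), was at 38.7, 30.8 and 34.0 CPM in wild type against 56.9, 48.5 and 43.8 CPM in knockout libraries. The group means of Pmvk were 34.5 ± 4.001 and 49.7 ± 6.62 CPM, a log2 fold change of 0.53 (SE 0.17, edgeR adjusted p = 0.687). Mvk and Pmvk also kept a higher level in knockout when the level of epithelium markers was a covariate, at 0.48 (SE 0.15) and 0.42 (SE 0.16).

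The other 5 genes of this arm overlapped between the groups. Acat2, the cytosolic thiolase that joins 2 acetyl-CoA, was at 62.5, 51.2 and 52.5 CPM in wild type against 81.1, 44.9 and 77.2 CPM in knockout, so that knockout library 2 was the lowest of all 6. Its close relative Acat3 took only 5 to 76 counts per library, though the 2 genes can share reads. Hmgcs1, the synthase that makes HMG-CoA (chr13:119690379-119708260), was the most abundant of the 18 enzymes in CPM, at 333.2, 245.8 and 250.9 CPM in wild type against 363, 258 and 280 CPM in knockout. Its difference was the smallest of the arm, a log2 fold change of 0.12 (SE 0.21). Mvd, which removes the carboxyl group to give isopentenyl diphosphate, was at 90.2, 57.1 and 61.4 CPM in wild type against 95.5, 63.0 and 86.6 CPM. Idi1, the isomerase that follows, was at 141, 143 and 118 CPM in wild type against 207, 103 and 172 CPM, and within the knockout group it varied 2.01-fold, more than any other enzyme there. The pseudogenes of Idi1 in the tables had 0 counts in all libraries. Fdps, farnesyl diphosphate synthase, was at 265, 127 and 126 CPM in wild type against 258, 174 and 241 CPM, and wild type library 1 exceeded all others. Per kilobase of gene length Fdps ranked first among the 27 genes, with a mean of 125 CPM per kilobase in wild type against 162 in knockout, ahead of Hmgcs1 at 79.9 and 86.8.

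The second arm commits the pathway to sterols, closes the rings and trims lanosterol to cholesterol. Of its 11 genes 10 were higher in knockout gut (median log2 fold change 0.28), against 44.2% of all tested genes. In 1 of the 11 the groups did not overlap, a share near the 8.73% of all tested genes apart and higher. That gene was Sqle, squalene epoxidase, the first oxygen-requiring step (chr15:59315077-59331192), at 110, 99.2 and 109 CPM in wild type against 141.5, 110 and 126 CPM in knockout libraries. The gap was narrow, since knockout library 2 stood at 110.0 and wild type library 1 at 109.7 CPM. The log2 fold change of Sqle was 0.25 (SE 0.15, edgeR adjusted p = 0.790), and without knockout library 1 it was 0.09 (SE 0.19). Fdft1, squalene synthase, was at 192, 109 and 104 CPM in wild type against 198, 138 and 166 CPM in knockout. Lss, which folds the epoxide into lanosterol, was at 69.4, 51.4 and 51.9 CPM in wild type against 77.1, 51.3 and 73.1 CPM in knockout. In Fdft1 only wild type library 1 sat among the knockout values, and in Lss every wild type library did.

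The first lanosterol-trimming enzymes shared the layout of Fdft1. Cyp51, the lanosterol demethylase, was at 131, 102 and 103 CPM in wild type against 165, 111 and 131 CPM in knockout. Tm7sf2, a sterol reductase, had the widest spread of the enzymes, at 23.3, 9.62 and 14.4 CPM in wild type against 24.6, 18.3 and 23.9 CPM in knockout. Its log2 fold change was 0.50 (SE 0.34, edgeR adjusted p = 0.806). Msmo1, the methylsterol oxidase, was at 200, 105 and 103 CPM in wild type against 206, 184 and 152 CPM in knockout, a log2 fold change of 0.41 (SE 0.30, edgeR adjusted p = 0.819). Nsdhl, its partner dehydrogenase, was at 69.0, 45.2 and 46.7 CPM in wild type against 75.0, 60.4 and 66.1 CPM in knockout, a log2 fold change of 0.33 (SE 0.21, edgeR adjusted p = 0.790). Hsd17b7, the ketoreductase of the same complex, was at 36.1, 28.1 and 28.1 CPM in wild type against 43.2, 32.2 and 34.9 CPM in knockout, a log2 fold change of 0.26 (SE 0.19, edgeR adjusted p = 0.818). In these 5 genes only wild type library 1 reached the knockout range, and wild type libraries 2 and 3 lay below all knockout libraries.

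In the last 3 enzymes wild type library 1 also stood well above the other wild type libraries. Ebp, the sterol isomerase, was at 109, 53.5 and 53.7 CPM in wild type against 93.0, 77.6 and 90.2 CPM in knockout. Sc5d, the desaturase that follows, was at 90.3, 54.7 and 48.4 CPM in wild type against 93.4, 79.2 and 67.5 CPM in knockout. Dhcr7, a late-acting sterol reductase (chr7:143823145-143848410), was at 138, 73.6 and 74.2 CPM in wild type against 105, 79.4 and 96.7 CPM in knockout. Dhcr7 was the only tested gene of the 26 with a fitted difference below 0, at -0.02 (SE 0.28), and without wild type library 1 that value was 0.31 (SE 0.17).

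**Figure D2:**
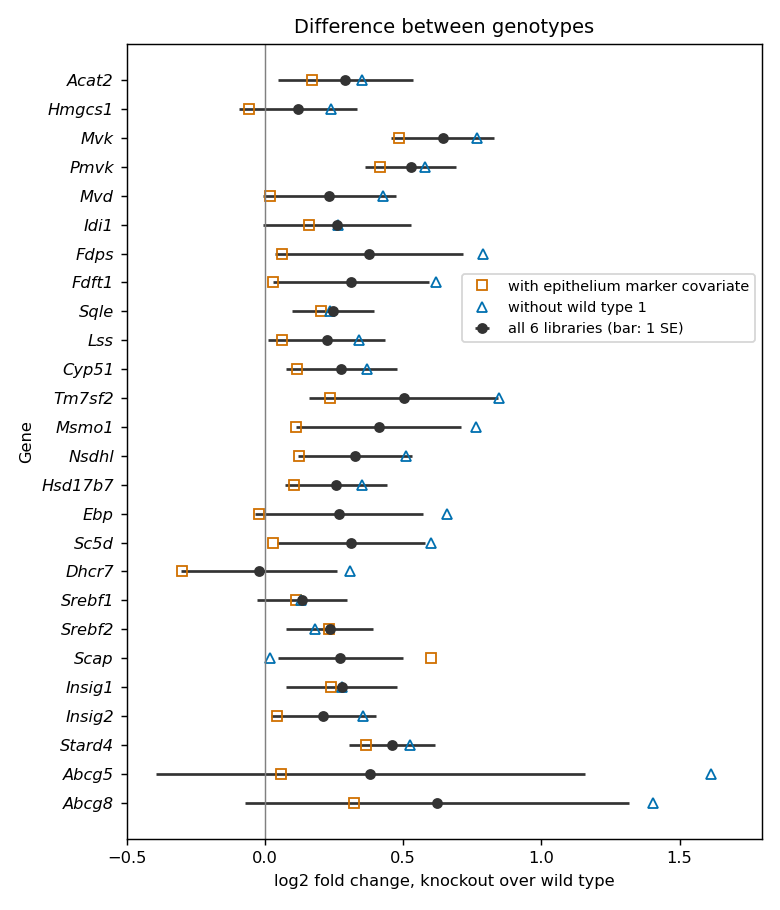
Log2 fold change of knockout over wild type (horizontal axis) for each tested gene (vertical axis), with filled circles and bars of 1 SE from all 6 libraries, open squares from the fit with epithelium markers as a covariate and open triangles from the fit without wild type library 1. Mvk, Pmvk and Stard4 stay above 0.35 in all 3 fits, while Scap moves from 0.27 to 0.60 and 0.02.

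The enzymes shared an order of libraries within each group. Knockout library 1 was the highest of the knockout libraries in 18 of 18 enzymes, against 22.8% of all tested genes, and knockout library 2 the lowest in 15, against 40.1%. Wild type library 1 was the highest wild type library in 17 of 18, all but Idi1, against 41.8% of all tested genes. It lay above all knockout libraries in 3 enzymes (Fdps, Ebp and Dhcr7), among them in 12 and below them in 3 (Mvk, Pmvk and Sqle). Over the 18 enzymes the mean deviation in log2 CPM from the 6-library mean came to 0.23, -0.38 and -0.34 in wild type libraries 1, 2 and 3 against 0.39, -0.07 and 0.17 in knockout libraries. The groups therefore overlapped in this mean through wild type library 1.

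Markers of cell types differed between the libraries too. The 14 epithelium markers had means of 0.40, -0.37 and -0.51 in wild type against 0.29, 0.11 and 0.08 in knockout libraries, and 13 of the 14 had a higher fitted level in knockout. Their summed level was 14610 to 30140 CPM in wild type against 22370 to 26610 CPM in knockout, and none was at 0 in any library. The 6 fibroblast markers ran the other way, with means of -1.74, 1.0003 and 1.24 in wild type against -1.27, 0.70 and 0.07 in knockout, and a summed level of 389 to 3671 and 513 to 2166 CPM. All 6 had a lower fitted level in knockout. The 8 proliferation markers were lower in knockout in 8 of 8, with summed levels of 508 to 876 and 342 to 701 CPM. Hepatocyte markers, from another tissue rich in sterol synthesis, summed to 3.31 to 5.84 CPM in all libraries. With the mean of the epithelium markers as a covariate the enzyme median was 0.11 and that of all 26 genes 0.12, and 23 of 26 were higher. Without wild type library 1 the enzyme median was 0.47, and 19 of 26 genes lay apart and higher in knockout, against 25.8% of all tested genes. Without knockout library 2 there were 11 such genes of 26, against 11.5% of all tested genes. There were 5 without wild type library 2, 5 without wild type library 3 and 5 without knockout library 1, against 11.0%, 11.8% and 10.9%. Without knockout library 3 there were 4, against 13.3%. Without knockout library 1 the enzyme median was 0.10, and that of the 26 genes 0.13. The part of cell makeup in the difference was not tested. The epithelium covariate was taken from the same libraries, so its fit cannot separate cell makeup from expression per cell.

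**Figure D3:**
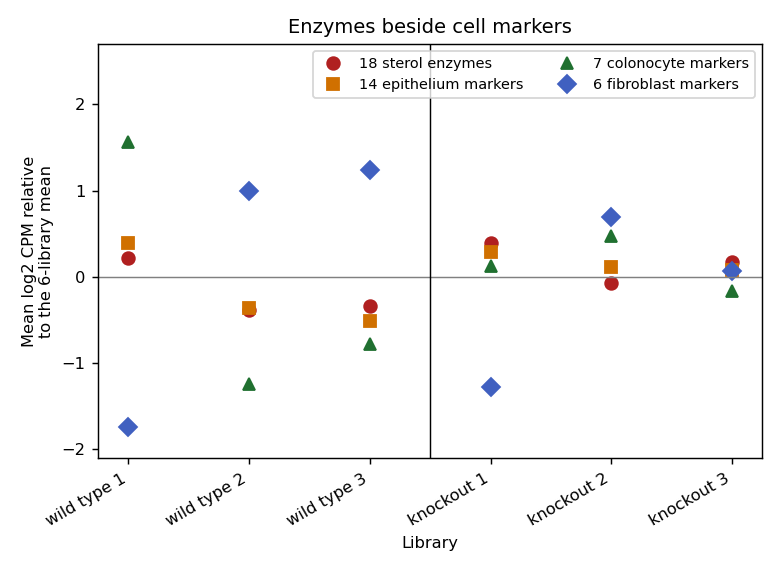
Mean log2 CPM relative to the 6-library mean (vertical axis) in each library (horizontal axis) for the 18 sterol enzymes and for markers of epithelium, colonocytes and fibroblasts. Enzymes and epithelium markers lie on the same side of 0 in 5 of 6 libraries (0.23 and 0.40 in wild type library 1, -0.38 and -0.37 in wild type library 2) and on opposite sides in knockout library 2 (-0.07 and 0.11), while the fibroblast markers are lowest in wild type library 1 and knockout library 1.

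The genes of the sensing machinery lay on the same side as the enzymes. All 6 genes were higher in knockout gut, against 44.2% of all tested genes. Their log2 fold changes ran from 0.13 to 0.46, and the median was 0.25. Srebf2, which encodes SREBP-2 (chr15:82147181-82205379), was at 264, 291 and 255 CPM in wild type against 336, 287 and 330 CPM in knockout, and its groups overlapped by 1 library. The log2 fold change of Srebf2 was 0.23 (SE 0.16, edgeR adjusted p = 0.802), and its highest library exceeded its lowest 1.32-fold, the narrowest range of the 26 genes. Srebf1, which encodes SREBP-1 and serves fatty acid synthesis more than sterols, was at 101, 82.6 and 103 CPM in wild type against 105, 92.1 and 119 CPM in knockout. Per kilobase Srebf2 exceeded Srebf1, with means of 53.2 and 22.3 CPM per kilobase in wild type.

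Scap, the escort (chr9:110333288-110384950), was at 48.5, 79.8 and 85.3 CPM in wild type against 82.9, 86.5 and 88.9 CPM in knockout. Wild type library 1 was the only low value, and without it the log2 fold change of 0.27 (SE 0.23) became 0.02 (SE 0.12). With the epithelium covariate it was 0.60 (SE 0.12, edgeR adjusted p = 0.323). Insig1, a retention protein and itself an SREBP target, was at 80.3, 59.1 and 87.7 CPM in wild type against 103, 76.8 and 95.9 CPM in knockout, a log2 fold change of 0.28 (SE 0.20, edgeR adjusted p = 0.818). Insig2, the isoform less tied to SREBP, was at 54.0, 41.8 and 35.3 CPM in wild type against 50.4, 55.2 and 46.2 CPM in knockout, with wild type library 1 inside the knockout range.

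Stard4, a cytosolic carrier that shuttles cholesterol between membranes and is induced by SREBP-2, differed most clearly of this group. Its gene lies at chr18:33199355-33213862. It was at 127, 94.1 and 111 CPM in wild type against 152, 155 and 150 CPM in knockout libraries. The knockout libraries lay within 1.03-fold of each other and above all wild type libraries. Means were 111 ± 16.5 and 152 ± 2.51 CPM (SD, n = 3 each), a log2 fold change of 0.46 (SE 0.16), with an unadjusted p of 0.0230 and an adjusted p of 0.696 by edgeR. The difference was 0.37 (SE 0.14) with the epithelium covariate and 0.53 (SE 0.14) without wild type library 1.

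**Figure D4:**
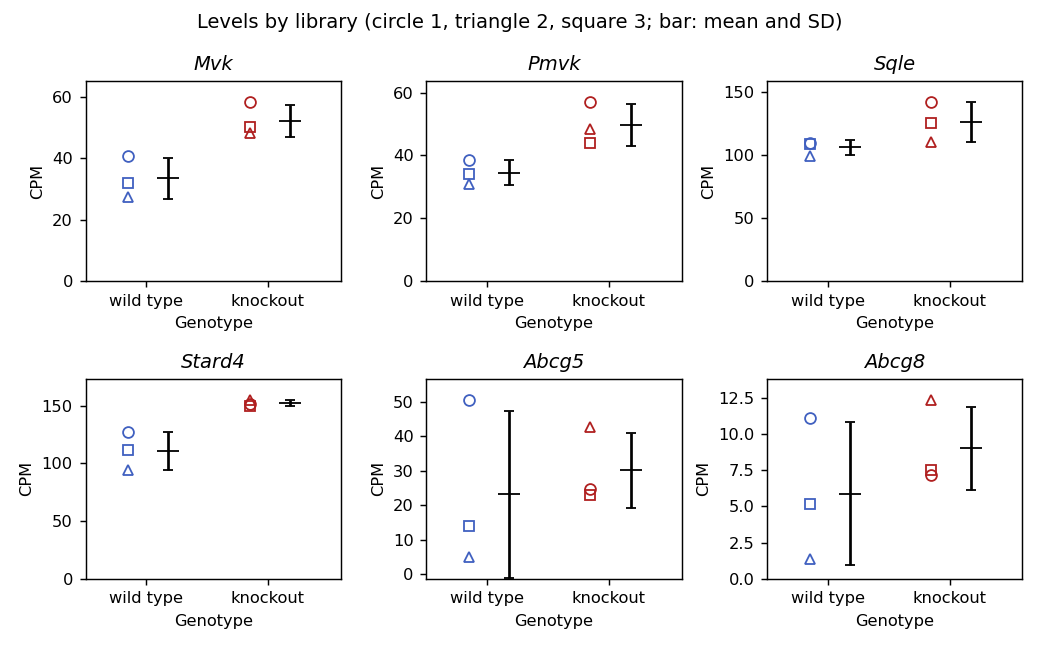
CPM (vertical axis) by genotype for 6 genes, with 1 point per library (circle for library 1, triangle for 2, square for 3) and a bar for the mean and SD of 3 libraries. In Mvk, Pmvk, Sqle and Stard4 all knockout points lie above all wild type points; in Abcg5 and Abcg8 the wild type points spread from 4.83 to 50.6 and from 1.36 to 11.1 CPM and enclose most knockout points.

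The sterol transporter genes had the widest spread between mice of the 27 genes or were close to silent. Npc1l1, the importer of dietary cholesterol in the small intestine, had almost no reads, with 1, 1 and 0 counts in wild type against 0, 0 and 1 in knockout libraries, under the floor of 3 counts per library (0.124 to 0.187 CPM, counting error only). It could not be tested. Abcg5 and Abcg8 encode the 2 parts of the pump that sends cholesterol and plant sterols back to the lumen, and they start 109 bases apart on opposite strands by RefSeq. The stretch between, from the first bases of Abcg5 to the base before Abcg8, is shown because the levels of the 2 genes went up and down together across libraries; capitals mark a CCAAT.
Abcg5 to Abcg8, chr17:84683007-84683120, plus strand: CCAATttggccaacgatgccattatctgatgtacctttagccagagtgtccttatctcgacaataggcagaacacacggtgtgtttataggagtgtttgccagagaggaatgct
Abcg5 (chr17:84658234-84683011) was at 50.6, 4.83 and 14.1 CPM in wild type against 24.7, 42.6 and 23.03 CPM in knockout libraries. Its wild type libraries differed 10.5-fold, and wild type library 1 was the highest and library 2 the lowest of all 6. Abcg8 (chr17:84676302-84700333) was at 11.1, 1.36 and 5.16 CPM in wild type against 7.19, 12.3 and 7.50 CPM in knockout libraries. The ratio of Abcg5 to Abcg8 per kilobase stayed between 4.26 and 7.12, while Abcg5 itself spanned that 10.5-fold range. Exons of the 2 genes overlap on opposite strands in GENCODE vM21, and whether the counting used strand is not given in the sources used here; some reads could have been assigned to either.

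Log2 fold changes were 0.38 (SE 0.78) for Abcg5 and 0.62 (SE 0.69) for Abcg8, with edgeR adjusted p of 0.925 and 0.864. They were 1.61 (SE 0.54) and 1.40 (SE 0.62) without wild type library 1 and -0.10 (SE 0.57) and 0.15 (SE 0.46) without wild type library 2. The size of the difference, and for Abcg5 its sign, thus changed with the wild type mouse left out. Colonocyte markers followed the same order of libraries as Abcg5, with means of 1.56, -1.24 and -0.78 in wild type against 0.13, 0.48 and -0.16 in knockout. The 7 colonocyte markers summed to 1289 to 6804 CPM in wild type against 2363 to 3598 CPM in knockout, and none was at 0. Of the 7, 4 were higher in knockout, against 44.2% of all tested genes. In 1, Cyp2c55, the groups lay apart with knockout lower, against 4.27% of all tested genes. Cyp2c55 was at 155.5, 34.5 and 70.4 CPM in wild type against 12.6, 23.3 and 18.4 CPM in knockout. In 0 of the 7 the groups lay apart with knockout higher, against 8.73%. The part of the colonocyte markers in the difference of Abcg5 and Abcg8 was not tested.

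Other genes of sterol and lipid metabolism were read from 5 lists. By edgeR 0 of their genes had an adjusted p under 0.05, as in the whole table, in which 1145 genes had an unadjusted p under 0.05. Of 12 tested genes of SREBP activation, 11 were higher in knockout gut (median log2 fold change 0.12), against 44.2% of all tested genes. In 4 the groups did not overlap, with knockout higher, against 8.73% of all tested genes. Among them were Erlin1 and Erlin2, which encode sterol-sensitive scaffold proteins of the endoplasmic reticulum, and Rnf139, which encodes a ubiquitin ligase. Erlin1 was at 68.9, 48.8 and 50.3 CPM in wild type against 80.4, 98.8 and 74.3 CPM in knockout, a log2 fold change of 0.59 (SE 0.20, edgeR adjusted p = 0.688), and Rnf139 and Erlin2 differed by 0.35 (SE 0.15) and 0.23 (SE 0.13). The proteases that cut SREBP, Mbtps1 and Mbtps2, differed by 0.12 (SE 0.17) and -0.16 (SE 0.23).

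Of 15 fatty acid synthesis genes known as SREBP-1 targets, 9 were higher and 6 lower (median 0.15), where 44.2% of all tested genes were higher. The enzymes Acly and Acaca, at the entry of fatty acid synthesis, lay apart and higher in knockout. Acly, which makes cytosolic acetyl-CoA from citrate, was at 225, 232 and 345 CPM in wild type against 416, 417 and 399 CPM in knockout (log2 fold change 0.62, SE 0.21, edgeR adjusted p = 0.710). Acaca, acetyl-CoA carboxylase, was at 47.3, 54.5 and 50.9 CPM in wild type against 68.8, 64.2 and 76.2 CPM in knockout (0.45, SE 0.14, edgeR adjusted p = 0.684). Acss2, which makes acetyl-CoA from acetate, overlapped between the groups at 0.80 (SE 0.33). The elongase Elovl5 and the acyl-CoA synthetase Acsl3 lay apart and lower in knockout, at -0.32 (SE 0.16) and -0.34 (SE 0.20). The list thus held genes apart in either direction, 2 higher and 2 lower, against 8.73% and 4.27% of all tested genes.

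Liver X receptors sense oxidised sterols and drive efflux genes. Of 10 such receptor and target genes, which include Srebf1, Abcg5 and Abcg8, 8 were higher (median 0.23), against 44.2% of all tested genes. In 1 the groups lay apart with knockout higher, against 8.73% of all tested genes. The receptor gene Nr1h2 lay apart, at 73.1, 73.2 and 88.7 CPM in wild type against 100, 130 and 92.8 CPM in knockout (0.46, SE 0.18, edgeR adjusted p = 0.713). The efflux pump Abca1 had the lowest fold change of the list at -0.84 (SE 0.41), with 15.8, 37.0 and 44.2 CPM in wild type against 14.2, 24.0 and 16.1 CPM in knockout, and Lpcat3, a phospholipid-remodelling enzyme, differed by 0.29 (SE 0.19). Of 12 genes of esterification and intracellular transport, 7 were higher (median 0.06), against 44.2% of all tested genes. In 3 the groups lay apart with knockout higher and in 1 with knockout lower, against 8.73% and 4.27% of all tested genes. Stard3, a carrier at late endosomes, lay apart and higher at 0.35 (SE 0.13), as did Osbp, a sterol exchanger at the Golgi, at 0.16 (SE 0.12) and the esterifying enzyme Soat2, at 0.54 (SE 0.36) but only 0.951 to 1.87 CPM. Its more abundant relative Soat1 lay apart and lower at -0.35 (SE 0.16), and Gramd1a, a carrier of plasma membrane cholesterol, differed by -0.43 (SE 0.20).

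The branches that leave the pathway at isoprenoid diphosphates lay near the centre of all tested genes. Of 13 genes of prenylation, dolichol and ubiquinone synthesis, 5 were higher and 8 lower, with a median of -0.01 against -0.05 for all tested genes. The 3 of smallest p were Pdss2, a subunit that builds the ubiquinone tail, at 0.36 (SE 0.21), Icmt, which methylates prenylated proteins, at 0.19 (SE 0.15), and Rabggtb, a subunit of the Rab prenyltransferase, at -0.21 (SE 0.24). None of the 13 lay apart between the groups, against 8.73% of all tested genes apart and higher and 4.27% apart and lower.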

How the data were processed

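Estimated counts per gene, some of them fractional, stand in the tables the authors deposited, 1 per mouse; per the submitters' processing notes they used TopHat2 2.0.0 and mm10. Neither the counting program nor its annotation and use of strand is given in the sources used here. Counts were rounded, and groups came from the sample titles. Genes kept by filterByExpr (minimum count 10; 16732 of 56362) were tested with edgeR 4.0.16 (TMM, quasi-likelihood, Benjamini-Hochberg over all tested genes, threshold 0.05; R 4.3.3). SEs are the absolute log2 fold change over the square root of F. Deviations use log2 CPM with a prior count of 2. With 3 mice per group, p-values weigh the difference between groups against the variation between mice, estimated with information shared over all tested genes. Libraries of a group differed by a chi-square per degree of freedom of 33.8 or more, so none was a copy of another. Gene lengths came from the deposited tables, coordinates from GENCODE vM21 (GRCm38), promoters from RefSeq (GRCm38.p6). Members, lists and alternatives (other scaling, filters and tools, DESeq2 1.42.0 and limma 3.58.1, a replicate block, an epithelium covariate, leaving out each library) were chosen with earlier results of these data known. Named were all members, with statistics for those apart between groups or among the 10 of smallest p, and from each other list the 3 of smallest p and those apart; other genes (Hmgcs1, Scap, Abcg5, Abcg8, Dhcr7, Mbtps1, Mbtps2) have statistics chosen after their values were seen. 1 gene that this rule names is not reported here. Fdft1, Cyp51, Tm7sf2, Fdps and Srebf1 also share exonic bases with another gene, so their counts may hold its reads. Hmgcs1, Idi1, Lss and Scap share exonic bases with genes that had at most 10 counts in any library.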

Additional observations from a re-analysis of the deposited data

How the results depend on the processing

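None of the 26 tested cholesterol genes passed under any of the 15 alternatives, and 21 of them were higher in knockout in the fit reported and under all 15. Over all genes, calls numbered 0 with edgeR, 127 with DESeq2, 2 with limma-voom and 3 with no filter on low counts. Directions turned for Dhcr7 (0.028 by limma-voom, 0.035 with the replicate block, and -0.17 to 0.31 with single libraries left out, among them 0.056 without knockout library 2), Hmgcs1 (-0.058 with the epithelium covariate, -0.099, without knockout library 1, to 0.24 with single libraries left out), Ebp (-0.022 with the covariate), Idi1 (-0.021 without knockout library 1) and Abcg5 (-0.10, without wild type library 2, to 1.61, without wild type library 1); the cause was not tested. The median of the sensing genes was 0.15 with no scaling factors, and 0.15 to 0.30 when single libraries were left out. Leaving out libraries gave 0.13 to 0.40 for the median of the 26 genes and 0.10 to 0.47 for that of the enzymes. Deviations of same-numbered mice from their group means had correlations of 0.42, -0.13 and 0.01 for numbers 1, 2 and 3. Those of differently numbered mice ran from -0.48 to 0.39. With 3 mice per group these values cannot decide whether the numbers pair the mice. With the replicate block 0 genes were called and the enzyme median was 0.31. Npc1l1, with at most 1 count in a library, was not tested.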
